A study of Mus musculus with 10 samples.

Results

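The genes described here encode the core of the microRNA pathway: the Argonaute genes Ago1, Ago2, Ago3 and Ago4, the scaffold genes Tnrc6a, Tnrc6b and Tnrc6c, and the processing genes Dicer1, Drosha and Dgcr8. They were taken by symbol, 10 of the 16865 symbols in the deposited table. They were picked by role but with the strong difference of Ago2 between the study's groups already known, so their differences between those groups are given as a description and support nothing. Each of the 10 libraries, prepared with strand information, holds the bulk RNA of 1 leukemic spleen, and the labels give the strain as C57BL/6. All recipients had been irradiated at a sub-lethal dose and carried T cell acute lymphoblastic leukemia (T-ALL) with a conditional Sirt1 allele, given into a vein. The control group (5 libraries) received corn oil by intraperitoneal injection, and the Sirt1 deleted group (5 libraries) received 3 mg of tamoxifen per mouse in corn oil. No group had tamoxifen without the deletion, so the effects of drug and deletion cannot be told apart. The labels do not give the Cre driver, the age of the mice, a batch or the leukemia that each recipient carried. They do not say that the libraries of a group came from separate leukemias, so every p-value measures only the spread between these samples.

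A microRNA starts as a hairpin in a longer transcript. DROSHA, held by its partner DGCR8, cuts the hairpin out in the nucleus. Exportin-5 carries it to the cytoplasm, where DICER1 trims it to a short duplex. An Argonaute protein keeps 1 strand of the duplex and pairs its seed, bases 2 to 8, with messenger RNAs. A TNRC6 protein then binds the Argonaute and brings in the enzymes that shorten the poly(A) tail and remove the cap. AGO2 is the Argonaute known for cutting a fully paired target, and it also matures miR-451, a red cell microRNA that bypasses DICER1. T-ALL is known for high activity of the miR-17-92 cluster. The libraries report messenger RNAs and other long transcripts. They do not measure mature microRNAs, protein or the activity of the pathway.

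The deposited values are normalized counts, which summed to between 33.6 M and 34.8 M per library. The spacing of the lowest values gave estimated depths of 28.5 M to 44.4 M reads per control library and 21.4 M to 39.3 M per Sirt1 deleted library. Sirt1, the deleted gene, lay between 1126 and 1348 normalized counts in the controls and between 710 and 1071 in the deleted group. The groups did not overlap, but the deleted group kept 74.4% of the control mean. The log2 difference of Sirt1 was -0.44 as deposited (limma adjusted p = 0.0125) and -0.27 without the 3 libraries named below (limma adjusted p = 0.128). It was -0.0068 with the length slope, also described below, as a covariate (limma adjusted p = 0.998). T cell markers were high in every library, with sums over 12 genes between 190350 and 224114 normalized counts. Libraries differed in how their values followed transcript length. The slope of each library's deviation from the gene means on log2 transcript length was 0.121, 0.125, 0.0886, 0.065 and 0.00319 in control libraries 1 to 5. It was -0.0188, -0.0967, -0.0464, -0.0404 and -0.201 in Sirt1 deleted libraries 1 to 5. The length slopes of the groups did not overlap, so the deletion and whatever set the slopes cannot be told apart. Slopes on GC content (as a fraction of bases) also differed, from -1.58 to -0.156 in the controls and from -0.208 to 2.05 in the deleted group. Only Sirt1 deleted library 3 reached the range of the controls. Control libraries 1 and 2 and Sirt1 deleted library 5 had the steepest length slopes. Results for Sirt1, the members, all other pathway genes together and the whole table are given with and without them. Most other named genes and lists are not given without them, and 3 genes of the whole table were called in that setting.

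All 9 members that could be tested had lower means in the Sirt1 deleted group, as they had with equal totals or quantile normalization, and Ago2 was lowest by far, at 37.4% of its control mean. Ago3 stood at 60.2% and Tnrc6b at 69.9%. Ago1, Tnrc6a, Tnrc6c, Dicer1 and Drosha stood between 76.5% and 87.1%, and Dgcr8 at 94.2%. In limma (adjusted p under 0.05 over 13567 genes) 8 of the 9 were called lower and 0 higher, beside 17.5% of all tested genes called lower and 14.5% called higher. Every deleted library lay below every control for 3 of the 9 and above for 0, beside 8.18% and 8.28% of all tested genes. The same contrast helped to choose the members, so nothing is read from these counts. The median log2 difference was -0.31 over the 9 members and 0.00 over all tested genes.

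Ago2 is on chromosome 15 (73095844 to 73184935, minus strand, GRCm38). Control libraries 1 to 5 held 5649, 5801, 4703, 3898 and 3164 normalized counts of it. Sirt1 deleted libraries 1 to 5 held 2609, 1484, 1776, 1907 and 903. The groups did not overlap, with control library 5 and Sirt1 deleted library 1 on either side of the gap. Control libraries averaged 4643 ± 1129 and deleted libraries 1736 ± 622 (SD, n = 5). On the log2 scale the deleted group was lower by 1.46 (difference -1.46, SE 0.239). Ago2 also varied most within groups among the tested members. Its highest control library was 1.83 times its lowest, and its highest Sirt1 deleted library was 2.89 times its lowest. The values rest on an estimated 915 to 6732 reads per library, so counting error is small beside that spread.

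Ago1, Ago3 and Ago4 lie side by side on chromosome 4, all on the minus strand. Ago3 spans 126331704 to 126429556, Ago1 126435012 to 126468583 and Ago4 126489541 to 126533472. AGO1 and AGO3 load microRNAs as AGO2 does. Ago1 held 4313, 4252, 4239, 3748 and 3307 normalized counts in control libraries 1 to 5. It held 3636, 2978, 3015, 3120 and 2449 in Sirt1 deleted libraries 1 to 5. Sirt1 deleted library 1 lay above control library 5, so the groups overlapped. Control libraries averaged 3972 ± 436 and deleted libraries 3039 ± 423 (SD, n = 5), and the log2 difference was -0.39 (SE 0.10).

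Ago3 was about an order of magnitude scarcer than its neighbour. It held 362, 326, 331, 278 and 282 normalized counts in control libraries 1 to 5 and 269, 189, 187, 160 and 146 in Sirt1 deleted libraries 1 to 5. The groups did not overlap, but Sirt1 deleted library 1 came within 10 normalized counts of the lowest control. The log2 difference was -0.75 (SE 0.147). Ago4 was barely present, with 3.94 to 9.92 normalized counts in the controls and 6.12 to 18.5 in the deleted group. These rest on an estimated 4.96 to 18.8 reads per library. Ago4 failed the filter of 10 normalized counts in at least 5 libraries, was not tested, and enters none of the counts of tested members. Its groups overlapped, and at this depth a difference of Ago4 between them could not be judged.

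Set per kilobase of the longest annotated coding transcript, the Argonaute pool was mostly Ago1 and Ago2. In the controls Ago1 made up 61.0 ± 3.35% (SD, n = 5) of the 4 genes' summed level, Ago2 36.7 ± 3.52%, Ago3 2.25 ± 0.195% and Ago4 0.118 ± 0.0581%. In the Sirt1 deleted group Ago1 made up 75.7 ± 3.91% and Ago2 21.9 ± 4.13%. The share of Ago2 ranged from 32.5% to 40.8% in the controls and from 15.7% to 26.6% in the deleted group. The shares depend on the length chosen. Per kilobase of coding sequence alone, Ago2 led in the controls (51.4 ± 3.79% against 45.0 ± 3.46% for Ago1) and Ago1 led in the deleted group (62.0 ± 5.16% against 33.9 ± 5.47% for Ago2). The ratio of Ago2 to Ago1 in the same library does not depend on a scaling of that library. In normalized counts it was 1.31, 1.36, 1.11, 1.04 and 0.957 in control libraries 1 to 5. It was 0.717, 0.498, 0.589, 0.611 and 0.369 in Sirt1 deleted libraries 1 to 5. Every deleted library lay below every control in this ratio. The group difference of Ago2 was known when the genes were picked, so the ratio is only a description. The 2 transcripts differ in length (13800 bases for Ago2 and 7227 for Ago1), so the ratio is not free of the length slopes. In the fit that includes those slopes, the log2 difference was -0.26 for Ago2 and 0.058 for Ago1, neither called in limma. Whether the slopes set the ratio was not tested.

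**Figure D1:**
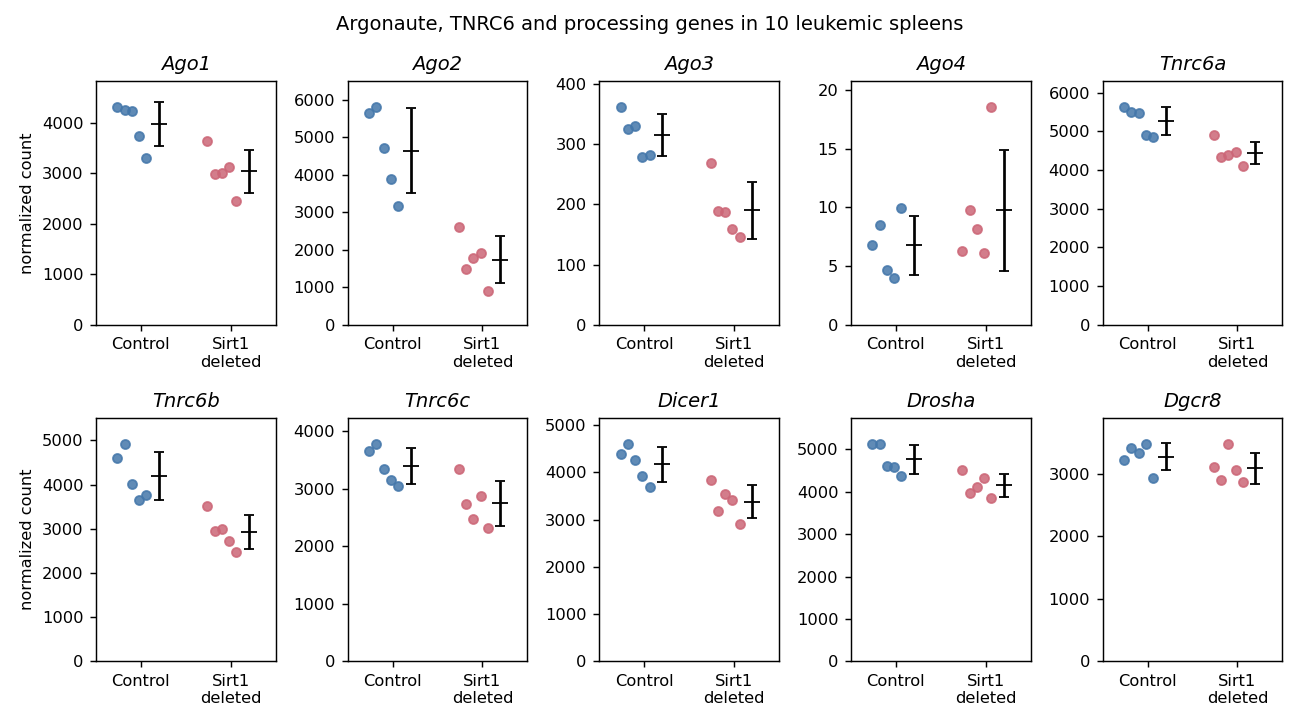
Normalized counts (vertical axes, from 0) of the 10 genes in each library, control libraries 1 to 5 in blue and Sirt1 deleted libraries 1 to 5 in red, from left to right in each group. Black bars give the mean ± SD of 5 libraries. Ago2, Ago3 and Tnrc6b have no overlap between the groups, and Ago4 stays below 20 in every library.

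The TNRC6 proteins link Argonaute to the deadenylases. Of the 3 genes, Tnrc6b on chromosome 15 (80711313 to 80941085, plus strand) had the largest difference. It held 4611, 4924, 4022, 3654 and 3775 normalized counts in control libraries 1 to 5 and 3509, 2940, 3001, 2730 and 2481 in Sirt1 deleted libraries 1 to 5. The groups did not overlap, and the log2 difference was -0.52 (SE 0.0999). Tnrc6a (chromosome 7) held 5622, 5488, 5471, 4908 and 4843 normalized counts in the controls and 4903, 4334, 4376, 4461 and 4114 in the deleted group. Its groups met at Sirt1 deleted library 1, which lay above control library 5, and the log2 difference was -0.25 (SE 0.0618). Tnrc6c (chromosome 11) ranged from 3043 to 3785 in the controls and from 2327 to 3340 in the deleted group, a log2 difference of -0.31 (SE 0.0941). Per kilobase, Tnrc6a made up 50.7 ± 1.44% of the family in the controls and 53.1 ± 1.70% in the deleted group, Tnrc6b 19.02 ± 1.03% and 16.5 ± 0.940%, and Tnrc6c 30.2 ± 0.547% and 30.3 ± 1.63% (SD, n = 5). The order of Tnrc6b and Tnrc6c depends on the length chosen. Per kilobase of coding sequence alone, Tnrc6b made up 33.6 ± 1.47% in the controls and 29.9 ± 1.43% in the deleted group. Tnrc6c made up 26.0 ± 0.355% and 26.7 ± 1.47% on that scale.

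Among the processing genes, Dicer1 differed about as much as Tnrc6c, and Drosha and Dgcr8 differed least of the tested members. Dicer1 (chromosome 12, 104687742 to 104751952, minus strand) held 4385, 4599, 4248, 3923 and 3683 normalized counts in control libraries 1 to 5. It held 3831, 3189, 3545, 3403 and 2911 in Sirt1 deleted libraries 1 to 5. Only deleted library 1 reached the range of the controls, and the log2 difference was -0.31 (SE 0.0797). Drosha (chromosome 15) ranged from 4374 to 5127 in the controls and from 3842 to 4511 in the deleted group, a log2 difference of -0.20 (SE 0.0623). Dgcr8 (chromosome 16), the partner that recognizes the hairpin, ranged from 2935 to 3469 in the controls and from 2875 to 3479 in the deleted group. Its log2 difference was -0.087 (SE 0.0653), the smallest of the members and the only tested one not called. The highest value of Dgcr8 in all 10 libraries was in Sirt1 deleted library 3.

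The same libraries stood at the ends for most members. Sirt1 deleted library 5 was the lowest of its group for 9 of the 9 tested members, and Sirt1 deleted library 1 the highest for 8. Control library 5 was the lowest of its group for 7, and control libraries 1 and 2 were the highest for 3 and 5. Per kilobase of transcript, Drosha was highest in the controls at 1042 ± 74.2 normalized counts, then Dgcr8 at 758 ± 49.1, Tnrc6a at 644 ± 44.3 and Ago1 at 550 ± 60.3 (SD, n = 5). Dicer1 at 423 ± 37.1, Tnrc6c at 384 ± 36.3 and Ago2 at 336 ± 81.8 came next. Tnrc6b stood at 242 ± 31.7, Ago3 at 20.3 ± 2.26 and Ago4 at 1.04 ± 0.385. The ranges of mean ± SD overlapped between Tnrc6a and Ago1, Dicer1 and Tnrc6c, Dicer1 and Ago2, Tnrc6c and Ago2, and Ago2 and Tnrc6b. In the deleted group the order was the same but for Ago2, which at 126 ± 45.1 stood below Tnrc6b at 169 ± 22.01, a gap within their spread.

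What the members share apart from their role is length. The longest annotated coding transcript was 8847 bases in the median tested member and 3001 bases in the median tested gene. The 3′ untranslated region (3′UTR) takes up 11064 of the 13800 bases of Ago2, 12742 of the 15595 of Ago3 and 11609 of the 17332 of Tnrc6b, the 3 genes whose groups did not overlap. In Drosha it takes up 168 of 4570 bases and in Dgcr8 1574 of 4320, and these 2 genes had the smallest differences. The median 3′UTR over all tested coding genes was 1125 bases. Coding lengths run the other way, since the Argonaute genes (2574 to 2586 bases) code for shorter proteins than the TNRC6 genes (5433 to 5703 bases). Long transcripts as a class were lower in the deleted group. Of the 3676 tested genes with transcripts of at least 4320 bases, the length of Dgcr8, 45.8% were called lower and 2.12% higher, with a median log2 difference of -0.24. Of the 22 tested genes with a 3′UTR at least as long as that of Ago2, 68.2% were called lower, with a median of -0.49. These 22 include Ago2, Ago3 and Tnrc6b themselves. At -1.46, Ago2 lay well below both medians. Ago3 (-0.75), Tnrc6b (-0.52), Ago1 (-0.39), Dicer1 (-0.31), Tnrc6c (-0.31) and Tnrc6a (-0.25) lay below the median of long transcripts. Drosha (-0.20) and Dgcr8 (-0.087) lay above it.

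Subtraction of each library's trend on transcript length and GC content left Ago2 with the largest difference of the members. Its corrected values were 4685, 4654, 4137, 3606 and 3051 normalized counts in control libraries 1 to 5 and 2673, 1722, 1947, 2137 and 1185 in Sirt1 deleted libraries 1 to 5. Every deleted library again lay below every control, as in 3.31% of all genes after the correction, and the log2 difference was -1.09 (SE 0.177). Ago3 stood at -0.35 (SE 0.114), Tnrc6b at -0.14 (SE 0.0517) and Ago1 at -0.095 (SE 0.0559), each with overlap. Tnrc6a (0.10, SE 0.0453), Dicer1 (0.068, SE 0.0366) and Dgcr8 (0.065, SE 0.0505) moved above 0. The members' median became -0.061. Ago2 was then the only member called lower in limma, 1 of 9, beside 6.11% of all genes called lower and 8.43% called higher after the correction. A true difference that depends on length would be removed with the trend.

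Without the 3 libraries of steepest slope, the log2 difference of Ago2 was -1.02 (SE 0.170), that of Ago3 -0.58 (SE 0.165) and that of Tnrc6b -0.33 (SE 0.0820). All 9 members remained below 0 and 0 of 9 were called in limma, while 6 of 9 had an unadjusted p under 0.05. Of all genes tested, 3 were called there. With each library's slope as a covariate the difference of Ago2 was -0.26 (SE 0.106), and Ago3 stood at -0.29 (SE 0.202). In that fit 0 of 9 members and 0 genes in the whole table were called in limma, with 1 of 9 members (Ago2) and 592 genes at an unadjusted p under 0.05. The slopes differ between the groups, so the covariate takes up part of any group difference.

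**Figure D2:**
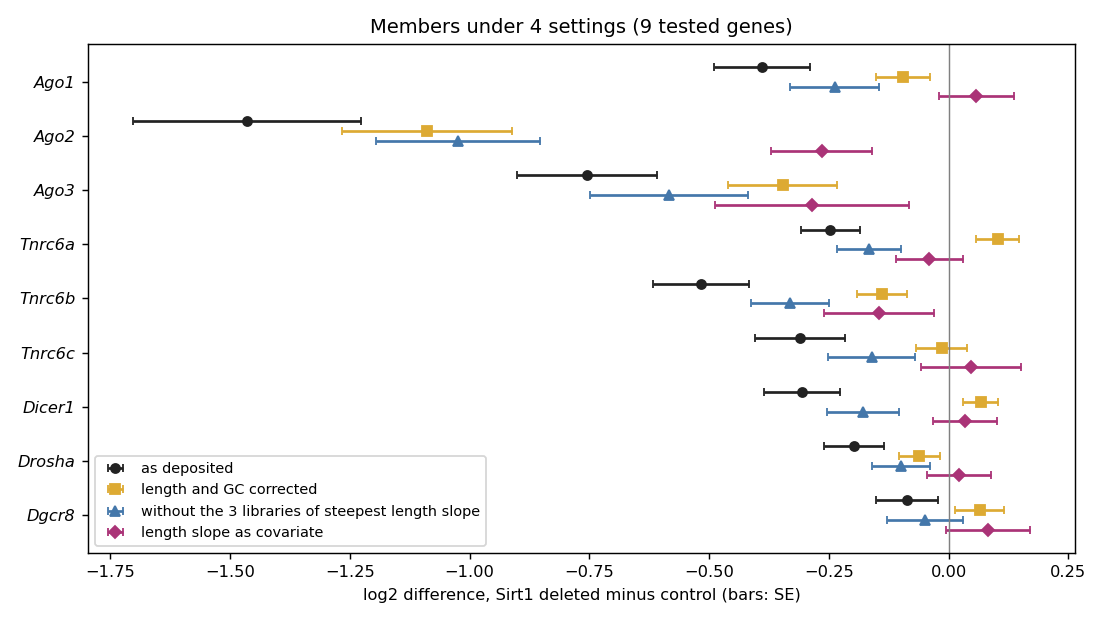
Log2 difference, Sirt1 deleted minus control (horizontal axis), of the 9 tested members under 4 settings, with bars of 1 SE. Ago2 stays near -1 or below in 3 of the settings and lies at -0.26 with the length slope as a covariate, where most other members lie near 0.

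Ago2 followed the slopes library by library. Ranked from highest to lowest, its 10 libraries stood in the same order as the length slopes, 10 of 10 places. Of the 13567 tested genes, 68 (0.501%) had that order. It requires every deleted library to lie below every control, which held for 1110 of the tested genes (8.18%). Ago2 was picked with its group difference known, so nothing is read from the match. Among the other members, Drosha matched 8 places, Ago1, Tnrc6a and Dicer1 6 each, Tnrc6b and Tnrc6c 5 each, Dgcr8 4, Ago3 3 and Ago4 0. Only exact places were counted, so libraries that swapped neighbouring places count as misses and the number is a coarse measure. Ago3 matched fewer places than Dgcr8. Without subtraction of group means, its log2 levels nonetheless had a Pearson r of 0.948 with those of Ago2. That of Tnrc6b was 0.961 and that of Dgcr8 0.603. Whether the slopes set the level of Ago2 was not tested. Within the controls Ago2 ran from 3164 in the library with a slope of 0.00319 to 5801 in the library with the highest slope. Within the deleted group it ran from 903 in the library with a slope of -0.201 to 2609 in the library with a slope of -0.0188.

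**Figure D3:**
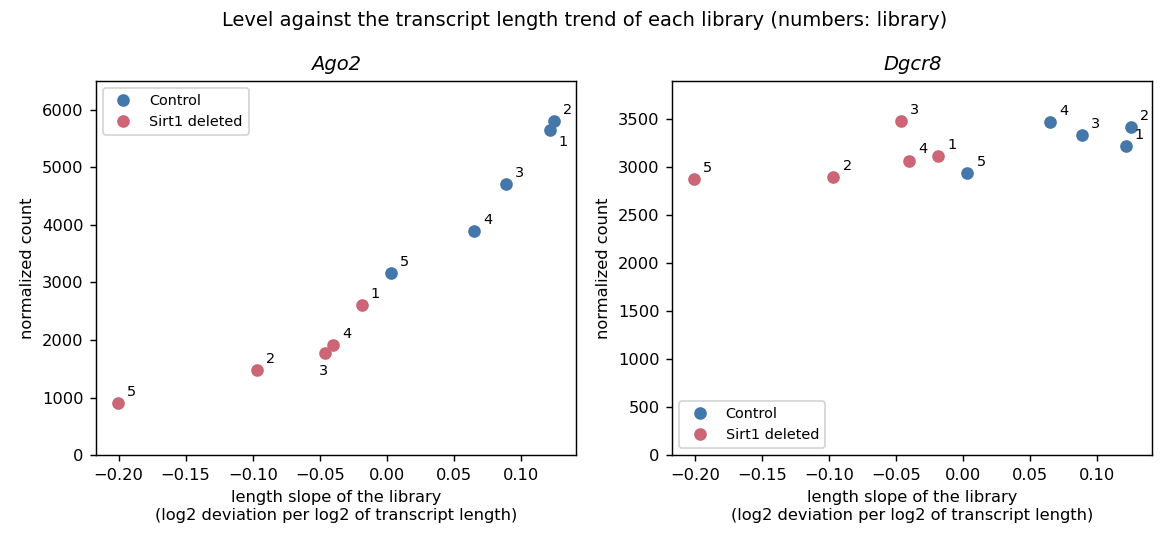
Normalized counts (vertical axes, from 0) of Ago2 on the left and Dgcr8 on the right against the length slope of each library (horizontal axes). Blue points are controls and red points Sirt1 deleted libraries, with the library number beside each. Ago2 rises with the slope through both groups, from 903 to 5801, while Dgcr8 stays between 2875 and 3479.

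The genes whose log2 levels were most like those of Ago2 over the 10 libraries, after subtraction of each group's mean, were Ncor1 (Pearson r 0.996), Lrp6 (0.994), Usp34 (0.993), Cbl (0.992) and Prr14l (0.989). They encode a corepressor, a Wnt coreceptor, a deubiquitinase, a ubiquitin ligase and a little known protein. Their transcripts ran from 9037 to 12200 bases. Without the subtraction they were Prr14l (0.997), Tmem245, Aff4, Bdp1 and Cbl (each 0.996). Among the members, Ago1 came closest with the subtraction at 0.970 (rank 84 of all tested genes), then Dicer1 at 0.967 (rank 100), and Dgcr8 was farthest at 0.520. These correlations are descriptions over 10 libraries that share the length trend. Cbl resembled Ago2 in size as well: it went from 4552 ± 1346 to 1469 ± 716 normalized counts (SD, n = 5), a log2 difference of -1.73, and of -1.34 after the correction.

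Levels of markers of other cell types also differed between the groups. Of 11 macrophage markers 7 were called lower and 0 higher (median log2 difference -0.72), with sums of 10710 to 15698 normalized counts in the controls and 6139 to 9900 in the deleted group. Of 11 erythroid markers 3 were called lower and 0 higher (median -0.40), with sums of 423081 to 537945 and 206883 to 469365. Of 8 neutrophil markers 2 were called higher (sums 1425 to 4092 and 1959 to 8461), and of 9 B cell markers 3 were called higher (sums 280 to 370 and 350 to 560). Of 12 T cell markers 3 were called higher and 0 lower (median 0.048). Of 4 stroma and endothelium markers 2 were called lower, and the 1 NK cell marker tested was not called. Over all tested genes 17.5% were called lower and 14.5% higher. After the correction 7 macrophage markers, 6 erythroid markers and 1 of stroma and endothelium were called lower, and 2 B cell markers higher. Of neutrophil, T cell and NK cell markers 0 were then called. The shares of all genes were then 6.11% lower and 8.43% higher. None of these markers was at 0 in every library, and Ebf1, a B cell marker, was the only one at 0 in some. The part of other cells in the members' levels was not tested. In bulk spleen, fewer cells of a type and less RNA per cell cannot be told apart.

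The rest of the pathway was read from lists assembled by role, 88 genes of which 83 were in the table and 78 were tested. In limma 19 were called lower and 3 higher, and 56 were not called, beside 17.5% and 14.5% of all genes, with a median log2 difference of -0.057. After the length and GC correction 6 were called lower and 11 higher, beside 6.11% and 8.43% of all genes. The shares of all genes, as deposited and corrected, also stand beside the counts of each list below. With the slope as a covariate limma called 0 in either direction (0 lower and 2 higher at an unadjusted p under 0.05). Without the 3 libraries of steepest slope it also called 0 (18 lower and 2 higher unadjusted). Without control library 1, control library 2 or Sirt1 deleted library 2 alone, 1 was called higher.

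Among the 15 cofactors of biogenesis and export, 1 rose and 2 fell. Xpo5 encodes exportin-5, which carries hairpins out of the nucleus. It held 4813, 4800, 4826, 4485 and 3729 normalized counts in control libraries 1 to 5 and 3755, 3245, 3257, 3653 and 2436 in Sirt1 deleted libraries 1 to 5. Its groups met at control library 5, and it fell by 0.48 on the log2 scale (SE 0.110, limma adjusted p = 0.0106). Tarbp2, which encodes the DICER1 partner TRBP, rose from 998 ± 44.9 to 1281 ± 143 (SD, n = 5), a log2 difference of 0.35 (SE 0.0753, limma adjusted p = 0.00883). Every deleted library lay above every control. Its transcript is short, at 1523 bases, and after the correction its difference was 0.12 and not called. Ncbp1, which encodes the large subunit of the nuclear cap-binding complex, fell by 0.18 (limma adjusted p = 0.0249). After the correction Xpo5 stood at -0.29 and was called, and Ncbp1 stood at -0.14 and was not. Over the list 2 genes were then called higher and 1 lower.

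Among 22 genes for Argonaute loading and partners, 4 fell and 1 rose. Ankrd52 encodes a regulatory subunit of the phosphatase that removes phosphates from AGO2. It had the largest fall of the list, from 7981 ± 1203 to 4614 ± 1190 normalized counts (SD, n = 5), a log2 difference of -0.82 (SE 0.175, limma adjusted p = 0.00888). Its groups did not overlap, and the difference was -0.60 after the correction and still called. Fmr1, which encodes an RNA-binding protein, fell by 0.65 (limma adjusted p = 0.0164), and Ipo8, which encodes an importin that binds Argonautes, fell by 0.41 (limma adjusted p = 0.0151). Mov10, which encodes a helicase found with AGO2, rose by 0.26 (limma adjusted p = 0.0189), from 1363 ± 55.8 to 1637 ± 170, with every deleted library above every control. After the correction Fmr1 (-0.44) and Mov10 (0.24) were still called and Ipo8 (-0.16) was not, and over the list 4 genes were called higher and 2 lower. Hsp90ab1 and Hsp90aa1, genes of chaperones that open Argonaute for loading, were abundant and not called. Hsp90ab1 went from 144605 ± 7241 to 143225 ± 2543 and Hsp90aa1 from 31179 ± 1841 to 29812 ± 3360. The other chaperone and cochaperone genes of the list are not described here.

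The effectors that TNRC6 calls to the messenger RNA formed the largest list. Of 31 genes, 9 fell, 1 rose and 21 were not called. Cnot1, which encodes the scaffold of the CCR4-NOT deadenylase, fell from 16309 ± 2361 to 10317 ± 1986 normalized counts (SD, n = 5), a log2 difference of -0.67 (SE 0.138, limma adjusted p = 0.00855). Xrn1, which encodes the nuclease that degrades decapped messages, fell from 3852 ± 475 to 2601 ± 335, a log2 difference of -0.57 (SE 0.103, limma adjusted p = 0.00797). Neither gene's groups overlapped. After the correction Cnot1 stood at -0.31 and Xrn1 at -0.16, both still called. Dcp1a, a decapping cofactor, fell by 0.32, and the helicase gene Ddx6 by 0.50 (limma adjusted p = 0.00863 and 0.0158). Dcp2, another decapping gene, fell by 0.60 (limma adjusted p = 0.00898) and stood at -0.22 after the correction, still called. Dcp1b, the paralog of Dcp1a, was the gene that rose, by 0.27 (limma adjusted p = 0.0236). Pan3, which encodes a subunit of another deadenylase, held 2956 ± 66.1 normalized counts in the controls and 3055 ± 103 in the deleted group, a log2 difference of 0.047 (limma adjusted p = 0.443). It stood at 0.30 and was called after the correction. Dcp1a (-0.069) and Ddx6 (-0.20) were no longer called after it, and Dcp1b (0.29) was. Over the list the correction gave 5 genes called higher and 3 lower.

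Of 9 tested genes for tailing and turnover of microRNAs, 3 fell and 0 rose. They were the uridyltransferase genes Zcchc11, which fell by 0.34, and Zcchc6, which fell by 0.25, and the exonuclease gene Xrn2, which fell by 0.24 (limma adjusted p = 0.00902, 0.012 and 0.0431). After the correction 0 of the 9 were called. Zswim8, which encodes the ubiquitin ligase subunit behind target-directed decay of microRNAs, had a log2 difference of -0.059 (limma adjusted p = 0.457). Piwil4, the only tested gene of the PIWI branch, fell from 51.6 ± 15.8 to 31.5 ± 6.99 normalized counts with overlap (limma adjusted p = 0.0389), and was not called after the correction (-0.61). Lin28a and Lin28b, which block let-7 maturation in embryonic cells, had group means under 4 normalized counts and were not tested.

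**Figure D4:**
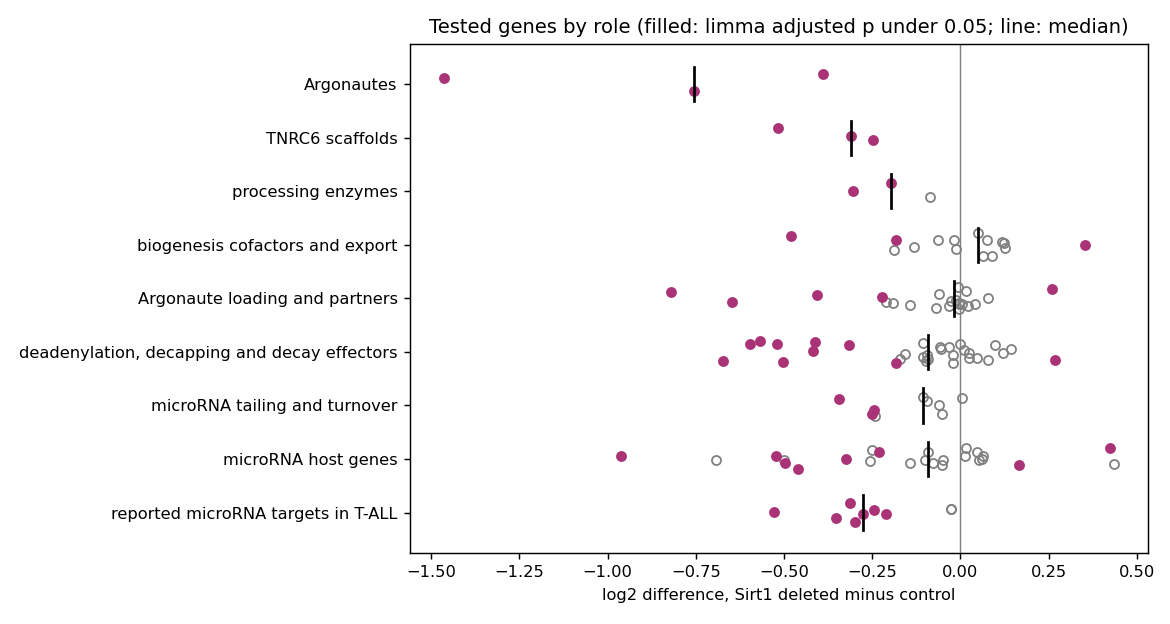
Log2 difference, Sirt1 deleted minus control (horizontal axis), of each tested gene by role. Filled points passed limma's adjusted p of 0.05, open points did not, and black lines are medians. Falls outnumber rises in most lists, while most points of the cofactors, partners and effectors are unfilled and lie near 0.

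Transcripts that carry microRNAs were looked at next. Mir17hg, the host of the miR-17-92 cluster (chromosome 14, 115042879 to 115046727, plus strand), had the highest level of the 111 rows named for microRNAs. It held 738, 714, 551, 948 and 766 normalized counts in control libraries 1 to 5 and 617, 809, 826, 752 and 802 in Sirt1 deleted libraries 1 to 5. The groups overlapped, with means of 743 ± 142 and 761 ± 85.1 (SD, n = 5) and a log2 difference of 0.048 (SE 0.126, limma adjusted p = 0.792). Of the 21 such rows tested, 3 were called higher and 2 lower, beside 14.5% and 17.5% of all tested genes. Next in level came Mir5125, which rose from 166 ± 35.2 to 217 ± 15.2 (log2 difference 0.41, limma adjusted p = 0.0358, and 0.27 and not called after the correction), and Mir3064, with 91.4 ± 32.8 and 75.3 ± 33.7 (limma adjusted p = 0.511). Among 25 host genes 2 rose and 6 fell, beside 14.5% and 17.5% of all tested genes. The genes that fell included Lpp (by 0.46), Chm (by 0.52) and the imprinted H19 (by 0.96, limma adjusted p = 0.00923). H19 went from 147 ± 29.8 to 76.2 ± 21.2 normalized counts. After the correction H19 (-1.06) and Chm (-0.27) were called and Lpp (-0.058) was not, and over the list 2 genes were called higher and 3 lower. The row for miR-451a, which AGO2 matures, held 2.6 to 10.9 normalized counts per library and was not tested. Such rows count reads on precursors or hosts and say nothing of the mature microRNAs.

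The mature microRNAs of the cluster are shown because their seeds set which messages they pair with. They come from RefSeq (GRCm38.p6), run 5′ to 3′, and have the seed in capitals. They fall into 4 seed groups: miR-17 with miR-20a, miR-18a, miR-19a with miR-19b, and miR-92a. The sequence of miR-451a stands beside them as the AGO2-dependent case.
mmu-miR-17-5p: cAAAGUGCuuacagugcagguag
mmu-miR-20a-5p: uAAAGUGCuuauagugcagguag
mmu-miR-18a-5p: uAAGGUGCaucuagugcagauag
mmu-miR-19a-3p: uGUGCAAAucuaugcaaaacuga
mmu-miR-19b-3p: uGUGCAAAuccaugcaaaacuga
mmu-miR-92a-3p: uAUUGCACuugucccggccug
mmu-miR-451a: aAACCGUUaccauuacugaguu

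The members' own messages hold matches to these seeds. Each match is the reverse complement of a seed, searched on the transcript strand in the 3′UTR of the longest coding transcript. The miR-19 match TTTGCAC was found in 8 of the 9 tested members, all but Drosha, against 12.7% of 12379 3′UTRs of tested genes and 23.4% of the 4726 that are at least as long as that of Dgcr8. The miR-17 match GCACTTT was in 6 of 9 (14.2% and 26.6% of those sets), the miR-18a match GCACCTT in 5 of 9 (9.18% and 17.1%) and the miR-92a match GTGCAAT in 1 of 9, Ago3 (7.27% and 13.6%). The 3′UTRs of Ago2, Ago3 and Tnrc6b are far longer than most in either set, which raises the count of any short motif. Long 3′UTRs and matches go together, so nothing is read from these counts about regulation.

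The first miR-19 match of 4 members is shown with its flanks, match in capitals, 5′ to 3′ along the transcript (GENCODE M21, GRCm38). The positions are chr15:73096112-73096134 (minus strand) for Ago2, chr4:126343702-126343724 (minus) for Ago3, chr15:80929873-80929895 (plus) for Tnrc6b and chr12:104690353-104690375 (minus) for Dicer1, all in 3′UTR exons.
Ago2: tcctaggttaaatagTTTGCACt
Ago3: gcaggttcagggaacTTTGCACt
Tnrc6b: agctttttaactttgTTTGCACt
Dicer1: cttgaagtttaatttTTTGCACt

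In Ago3 the miR-19 match runs into a miR-17 match, since TTTGCAC and GCACTTT share GCAC. The overlapping stretch, at chr4:126343699-126343721 (minus strand) with the miR-17 match in capitals, is shown because the miR-19 and miR-17 matches meet in it.
Ago3, miR-17 match: ggttcagggaactttGCACTTTg

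Of 9 genes reported as targets of microRNAs in T-ALL, 7 fell, 0 rose and 2 were not called, with a median log2 difference of -0.28, beside 17.5% of all genes called lower. Phf6, a chromatin gene often mutated in T-ALL, fell by 0.53 (limma adjusted p = 0.0148), from 4103 ± 398 to 2896 ± 613 normalized counts (SD, n = 5). Cyld, a deubiquitinase gene, fell by 0.35, and Ikzf1, which encodes the lymphoid factor Ikaros, by 0.28 (limma adjusted p = 0.0171 and 0.0139). Fbxw7 and Bcl2l11 each had a log2 difference of -0.026 and were not called. After the correction the list's median was 0.011, with 1 gene called higher and 1, Phf6, called lower (-0.33). Cyld (0.011) and Ikzf1 (-0.046) were no longer called.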

How the data were processed

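Total RNA from 10 leukemic spleens was sequenced in strand-specific libraries. Per the submitters' processing notes, kallisto 0.44.0, DESeq (no version named) and mm10 were used. What the authors deposited is a signal per gene, normalized counts in 1 column per library (0 columns left out). Annotation, gene filter, transcript summing and use of strand are not given in the sources used here. Between 87.7% and 92.2% of the lowest values lay within 0.1 of a whole step, so whole reads were not recovered and no count model was fitted. Depth is each total divided by its step.

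Genes with at least 10 normalized counts in at least 5 libraries (13567) entered limma-trend (limma 3.58.1, R 4.3.3) as log2(value + 1), two-sided, Benjamini-Hochberg over all genes tested, called at 0.05. Fold changes on this scale understate those of low genes. Lengths, GC content and 3′UTRs are those of the longest coding transcript in GENCODE M21 (13389 genes, 98.7% of those tested), which may not be the one expressed. The correction subtracts 2 natural splines (5 degrees of freedom each), of log2 length and of GC content, from every library's deviations from gene means. Steps were tested on simulated data. Tables were made with pandas 2.3.3 and numpy 2.4.6 and figures with matplotlib 3.10.9, in Python 3.11.15.

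The members, lists, tests and alternatives were chosen with earlier results of these data known. Named are all members, the 3 pathway genes of smallest p per list with Xpo5, Tarbp2, Pan3, Cnot1, Ddx6, Xrn1 and Zswim8, the 3 host genes and 3 targets of smallest p, Sirt1, the genes most like Ago2 and the 3 microRNA rows of highest mean. Dcp1b, Dcp2, Mov10, Bcl2l11, Fbxw7, Lin28a, Lin28b, Hsp90aa1, Hsp90ab1 and the row for miR-451a were named after their values were seen. Tried as alternatives were a minimum of 50, no filter, pseudocounts of 0.5 and 5, equal totals, quantile normalization, the correction, the slope as a covariate, omission of the 3 steepest libraries, 2 marker covariates, robust limma and leaving out each library.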

Additional observations from a re-analysis of the deposited data

Results flagged for a closer look

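Ncbp1, the gene of the large cap-binding subunit, had 1 control library far from the others. Control library 5 held 6482 normalized counts, and the next lowest control held 6858. The gap was 0.777 of the range of the 5 controls, above the critical value of 0.71 for 5 samples. It was the 1 such library found over 88 groups of libraries checked, and chance alone gives about 1 in 20.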

How the results depend on the processing

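Counts of calls moved under several of the 22 alternatives. Over the whole table, 2371 genes were called lower and 1973 higher. The length and GC correction left 818 and 1129, the length slope as a covariate 0 and 0 (592 at an unadjusted p under 0.05), omission of the 3 steepest libraries 2 and 1 (3159 unadjusted), and the B cell covariate 1420 and 1115. Leaving out 1 library gave 1278 to 2554 lower and 922 to 2158 higher. The counts fell most without control library 1 (1332 and 1003), control library 2 (1278 and 922) or deleted library 2 (1568 and 1143). Members called lower went from 8 to 1 with the correction and to 0 with the slope or without the 3 steepest libraries, and lay between 6 and 8 without 1 library, where Tnrc6c or Drosha was lost and 0 were called higher. Other pathway genes called lower went from 19 to 6, 0 and 0 under those settings and lay between 14 and 22 without 1 library. Those called higher went from 3 to 11, 0 and 0, to 8 with quantile normalization, and to between 1 and 4 without 1 library (1 each without control library 1, control library 2 or deleted library 2).

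With the slope as a covariate the sign of the log2 difference turned for Ago1 (0.058), Tnrc6c (0.046), Dicer1 (0.034), Drosha (0.022), Dgcr8 (0.083), Xpo5 (0.035), Ankrd52 (0.045), Ipo8 (0.076), Fmr1 (0.14), Cnot1 (0.012), Xrn2 (0.13), Ikzf1 (0.016), Phf6 (0.11), Cyld (0.075), Ddx6 (0.13), Mir17hg (-0.16), Mir3064 (0.31), Ncor1 (0.019), Lrp6 (0.041) and Usp34 (0.055). It turned with the correction for Tnrc6a (0.10), Dicer1 (0.068), Dgcr8 (0.065), Zcchc6 (0.027), Cyld (0.011) and Zswim8 (0.078), with quantile normalization for Zswim8 (0.0071), without the 3 steepest libraries for Mir3064 (0.093) and without control library 3 for Mir17hg (-0.055). The cause was not tested. Ago2 stayed below 0 in all 22 alternatives, from -1.63 to -0.26. No paired analysis was possible because the replicate numbers only name libraries in the order of their accessions and match no control with a deleted sample.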
